A study of Mus musculus with 6 samples.

Results

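Schwann cell and glial genes were followed in bulk RNA-Seq of the mouse ductus arteriosus (DA), the fetal artery that joins the pulmonary artery to the aorta. The set held 8 of the 23997 genes in the deposited table, namely *Sox10*, *Foxd3*, *Erbb3*, *Cdh19*, *Fabp7*, *S100b*, *Mbp*, and *Pmp22*, which were found by gene symbol. There were 6 libraries from C57BL/6 embryos at E17.5, with 3 labelled WT (WT0, WT1, and WT2) and 3 labelled *Prdm6f/f; SM22-Cre* (KO0, KO1, and KO2). *Prdm6* encodes a PRDM family repressor, both of its alleles are floxed in the KO group, and SM22-Cre drives Cre-recombinase in smooth muscle cells. The WT embryos were littermates, and whether they carried the Cre transgene or a floxed allele is not given in the sources used here. The libraries are not described as single embryos or as pools, so the spread between them may be partly technical. The 8 genes were picked with a higher level of Schwann cell genes in KO libraries already known, so their values in KO against WT are a description and carry no test.

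Schwann cells are the glia of peripheral nerves and arise from the neural crest, which also supplies most of the smooth muscle of the DA. A neural crest cell first becomes a Schwann cell precursor that travels along axons, then an immature Schwann cell, and finally a myelinating or a nonmyelinating Schwann cell. SOX10 is needed at each of these steps, neuregulin from axons keeps the precursors alive through ERBB3, and the myelin sheath is built from proteins such as MBP and PMP22. Nerve fibers that run beside and into the arterial wall carry such cells.

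Expression was given as FPKM, which scales the fragments of a gene by transcript length and library size, so that levels can be set side by side between genes. Sequencing depth was roughly estimated at 0.927 to 1.19 times that of WT1. The estimate rests on the most frequent FPKM ratio to WT1 among 127 to 559 genes under 0.5 FPKM in both libraries. Upper quartiles of FPKM were between 10.4 and 10.8. Summed FPKM differed more, at 412183 to 556911 in WT libraries and at 439074, 577580, and 818503 in KO0, KO1, and KO2. Between 8832 and 11886 genes were listed at 0 in WT libraries and between 8338 (KO2) and 9825 (KO0) in KO libraries. The part of these differences in the values below was not tested. *Prdm6* was between 19.8 and 48.4 FPKM in the WT libraries and between 15.4 and 48.6 FPKM in the KO libraries. The highest value was in KO0, so the gene's level in these libraries does not check the labels. By qRT-PCR, a separate measurement, the paper reports reduced *Prdm6* in the DA of these mice. It gives n = 4 per group for its bulk RNA-Seq, more than the libraries per group used here. KO0 also held both *Xist* (81.0 FPKM) and the Y-linked *Ddx3y* (26.4 FPKM), and in each other library the lower of these 2 genes was at most 0.383 FPKM. Heart muscle transcripts such as *Myl4* were high in WT1 and KO2, at 349 and 508 FPKM against 9.61 to 46.7 FPKM in the other 4 libraries. Not all followed this pattern, since *Tnnt2* was at 181, 142, and 140 FPKM in WT1, WT2, and KO2. *Myl2* was highest in WT2, at 124 FPKM against 16.3 FPKM in WT1 and 20.9 FPKM in KO2. *Rn45s*, the precursor transcript of ribosomal RNA, had a value of 0 in every WT library and of 3060, 3806, and 4520 FPKM in KO0, KO1, and KO2, and the part of ribosomal RNA or RNA quality in the values below was not tested. Log2 fold changes below are KO minus WT on the log2(FPKM + 0.1) scale from limma over the 12955 genes whose FPKM averaged 1 or more, and this scale understates changes of low genes. All 8 genes passed that filter.

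The level of 5 of the 8 genes, *Sox10*, *Foxd3*, *Erbb3*, *Cdh19*, and *Mbp*, was higher in both KO1 and KO2 than in any WT library. Across all genes tested, 14.7% had this pattern, which was picked out after the values were seen. KO0 was inside the WT range for *Sox10* and *Foxd3*, below it for *Mbp*, and above it for *Erbb3* and *Cdh19*. *Fabp7*, *S100b*, and *Pmp22* did not follow this pattern. All 3 KO libraries lay above all 3 WT libraries for 2 of the 8 genes, where 8.21% of all tested genes did so, and since the genes were chosen on this contrast nothing is read from that count. More glial cells and more RNA per glial cell cannot be told apart in bulk RNA.

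**Figure D1:**
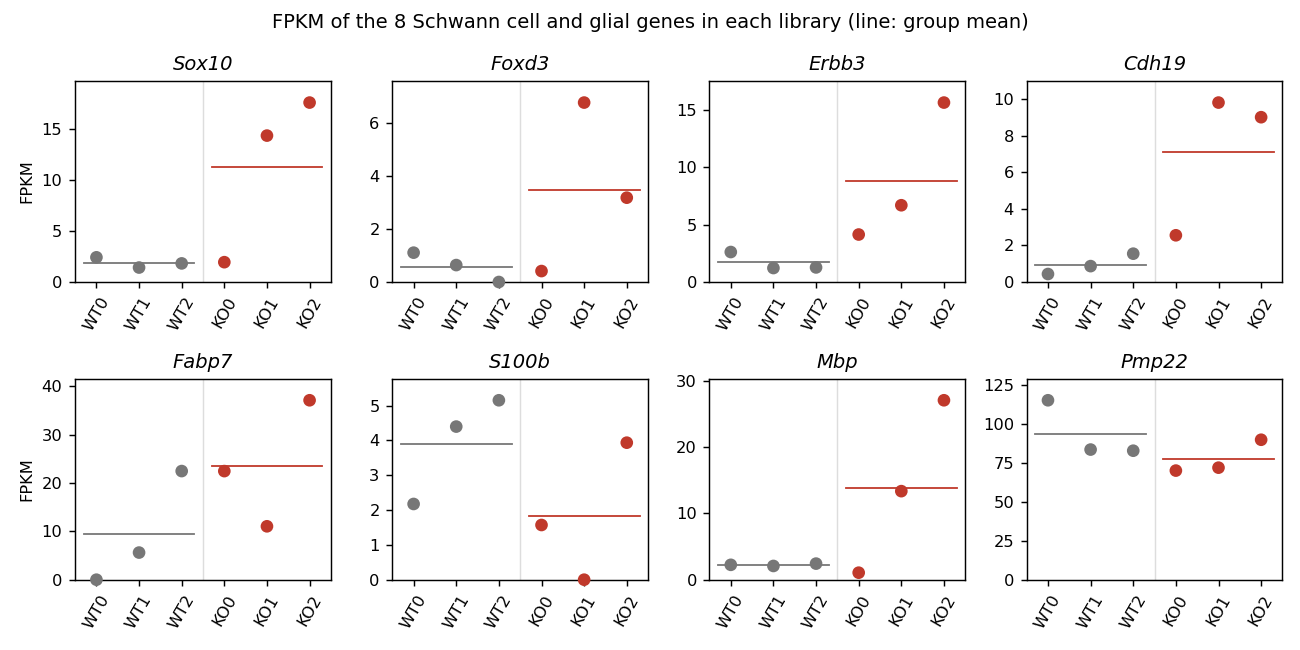
FPKM (y axis, linear, a separate scale for each gene) of the 8 genes in each of the 6 libraries, with WT libraries in gray, KO libraries in red, and a line at each group's mean. *Sox10*, *Foxd3*, *Erbb3*, *Cdh19*, and *Mbp* were high in KO1 and KO2, whereas *S100b* was at 0 in KO1 and *Pmp22* was between 69.9 and 115 FPKM throughout.

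*Sox10*, on chromosome 15 (build GRCm38, also called mm10) from 79154908 to 79165240 on the minus strand, encodes the transcription factor that defines the glial lineage of the neural crest. Its FPKM was 2.41, 1.41, and 1.82 in WT0, WT1, and WT2 and 1.94, 14.3, and 17.6 in KO0, KO1, and KO2. KO1 and KO2 were thus 5.93 and 7.27 times the highest WT library, and KO0 was inside the WT range. Group means of 1.88 ± 0.503 (SD, n = 3) in WT and 11.3 ± 8.24 (SD, n = 3) in KO gave a log2 fold change of 2.05 (standard error 0.84). Without KO0 the log2 fold change was 3.04, and without KO1 or KO2 it was 1.63 or 1.48.

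*Foxd3* (chromosome 4 from 99656299 to 99658622, plus strand) encodes a forkhead factor of premigratory neural crest and Schwann cell precursors that is turned down as glia mature. Its FPKM was 1.11, 0.639, and 0 in the WT libraries and 0.413, 6.77, and 3.18 in the KO libraries. Unlike *Sox10*, *Erbb3*, and *Mbp*, it was lower in KO2 than in KO1, a comparison of single libraries with no test. KO minus WT was 2.34 on the log2 scale (standard error 1.47). It was 3.41 without KO0, 1.26 without WT2, and 1.54 without KO1. An annotated miRNA gene shares bases with its exon, and the deposited values do not separate the 2.

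*Erbb3* (chromosome 10 from 128567523 to 128589652, minus strand) encodes the neuregulin receptor of Schwann cells. Its FPKM was 2.62, 1.22, and 1.27 in the WT libraries and 4.15, 6.70, and 15.7 in the KO libraries, so that the groups did not overlap. The log2 fold change was 2.18 (standard error 0.64) and stayed between 1.66 and 2.61 with each library left out in turn. *Erbb2*, which encodes the partner that ERBB3 signals through, averaged 9.48 FPKM in WT and 11.5 FPKM in KO libraries, which overlapped (log2 fold change 0.19, standard error 0.43, limma adjusted p = 0.894). *Nrg1*, the ligand, had 1.37, 4.61, and 0 FPKM against 0, 0.849, and 6.11 FPKM (limma adjusted p = 0.991). *Erbb3* was chosen with its contrast known, and 8.21% of all tested genes had all 3 KO libraries above all 3 WT libraries. Its separation, beside the overlap of *Erbb2* and *Nrg1*, is therefore a description and is not read as a result about neuregulin signaling.

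*Cdh19* (chromosome 1 from 110888326 to 110977584, minus strand) encodes a cadherin that marks Schwann cell precursors. Its FPKM was 0.436, 0.868, and 1.55 in the WT libraries and 2.55, 9.81, and 9.01 in the KO libraries. The groups did not overlap, and they differed by 2.71 on the log2 scale (standard error 0.78). *Fabp7* (chromosome 10 from 57784881 to 57788450, plus strand) encodes the brain lipid-binding protein of radial glia and Schwann cell precursors. Its FPKM was 0, 5.62, and 22.5 in the WT libraries and 22.5, 11.1, and 37.1 in the KO libraries. The WT libraries alone covered most of that range, and KO1, high in *Sox10*, was at 0.491 times WT2. Its log2 fold change of 3.17 (standard error 1.76) became 0.89 without WT0, the library listed at 0, and 4.80 without WT2. An exact 0 in this table can be a failed estimate, because 34 to 61 of the 3506 genes that averaged 20 FPKM or more were at 0 in each library.

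*S100b* (chromosome 10 from 76253853 to 76261159, plus strand) encodes a calcium-binding protein widely used as a Schwann cell stain, which cartilage and fat cells also express. Its FPKM was 2.17, 4.39, and 5.15 in the WT libraries and 1.57, 0, and 3.93 in the KO libraries. It was therefore at 0 in KO1, where *Sox10* was at 14.3 FPKM. The log2 fold change was -2.11 (standard error 1.36) with all 6 libraries, -0.54 without KO1, and -3.21 without KO2.

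*Mbp* encodes myelin basic protein, and the gene also gives rise to longer golli transcripts in cells that make no myelin. Its FPKM was 2.24, 2.07, and 2.42 in the WT libraries and 1.06, 13.3, and 27.0 in the KO libraries. The WT values had an SD of 0.177 FPKM, KO0 was the lowest of the 6 libraries, and KO1 and KO2 were 5.51 and 11.2 times the highest WT library. The log2 fold change was 1.68 (standard error 1.08), and it was 3.03 without KO0 and 0.75 without KO2. Without both WT1 and KO2 it was 0.70, a setting that was added after the data were seen. Because 16 transcripts of *Mbp* are annotated in GENCODE vM21 (chromosome 18 from 82475146 to 82585637, plus strand) and the table holds 1 value per gene, the golli and myelin forms could not be separated.

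*Pmp22* (chromosome 11 from 63128982 to 63159547, plus strand) encodes a membrane protein of compact myelin that mesenchymal cells also make. It was the highest of the 8 genes in each library, with 115, 83.4, and 82.6 FPKM in the WT and 69.9, 71.8, and 89.7 FPKM in the KO libraries. The groups overlapped, and the log2 fold change was -0.27 (standard error 0.20). In the WT libraries *Pmp22* was between 34.1 and 51.3 times *Mbp* by FPKM. In KO0, KO1, and KO2 it was 66.1, 5.38, and 3.31 times *Mbp*, so the KO libraries lay on both sides of the WT range.

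*Pmp22* is known to be transcribed from alternative promoters, one used in myelinating Schwann cells and another in many tissues. RefSeq (GRCm38.p6) lists 4 start windows for the gene, and the entries used here do not say which cells use each start. The 250 bases before the outermost starts are shown, chosen by position only, beside those of *Foxd3*. *Foxd3* was the only gene among the 5 high in KO1 and KO2 with an entry in the promoter table used. Sequences run 5′ to 3′ on the gene's strand, and capitals mark each CpG.
Pmp22, first start, chr11:63128732-63128981: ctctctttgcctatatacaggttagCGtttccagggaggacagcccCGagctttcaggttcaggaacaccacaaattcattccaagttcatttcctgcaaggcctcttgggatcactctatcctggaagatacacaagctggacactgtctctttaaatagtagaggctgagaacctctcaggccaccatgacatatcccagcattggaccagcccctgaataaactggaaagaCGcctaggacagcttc
Pmp22, last start, chr11:63132553-63132802: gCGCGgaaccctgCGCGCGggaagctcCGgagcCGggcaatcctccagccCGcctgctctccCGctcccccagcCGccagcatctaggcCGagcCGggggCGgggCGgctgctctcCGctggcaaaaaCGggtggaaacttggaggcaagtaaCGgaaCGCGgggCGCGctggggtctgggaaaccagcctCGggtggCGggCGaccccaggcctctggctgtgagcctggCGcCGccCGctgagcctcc
Foxd3, chr4:99656049-99656298: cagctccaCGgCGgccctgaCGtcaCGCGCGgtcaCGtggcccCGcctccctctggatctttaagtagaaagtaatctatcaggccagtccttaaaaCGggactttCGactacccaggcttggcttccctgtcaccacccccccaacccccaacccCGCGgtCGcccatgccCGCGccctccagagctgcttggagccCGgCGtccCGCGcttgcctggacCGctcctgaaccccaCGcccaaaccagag

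The first *Pmp22* window held 3 CpG and was 48.8% G and C, the last held 27 CpG and was 73.6% G and C, and the *Foxd3* window held 21 CpG. The median over 32851 windows of this length was 6 CpG. The deposited table gives a single *Pmp22* value, so starts could not be told apart in either group. The windows of the members in the table, *Foxd3*, *Fabp7*, *S100b*, and *Pmp22* (4 of 8 members), were searched on both strands for ACAAAG and ACAATG, cores of the motif that SOX factors bind. None of these windows held either one, and 25.2% of all windows did.

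The precursor genes outside the 8 were measured on a list of 18 precursor and immature Schwann cell genes that included 5 of the 8. *Ednrb*, the endothelin receptor of neural crest and glia, had 9.02, 16.5, and 21.2 FPKM in WT and 18.2, 54.9, and 85.4 FPKM in KO libraries. *Gfra3*, the artemin receptor subunit, had 2.03, 0, and 0 FPKM against 1.83, 9.72, and 5.81 FPKM, and *Ngfr*, the p75 neurotrophin receptor, had 5.42, 9.41, and 9.25 FPKM against 5.47, 25.1, and 25.9 FPKM. As with *Sox10*, KO0 was inside the WT range for all 3 of these receptors and KO1 and KO2 were above it. *L1cam*, an adhesion molecule of unmyelinated axons and their glia, differed in that KO0 was also high, with 0.565, 0.918, and 0 FPKM in WT and 4.24, 5.33, and 8.38 FPKM in KO libraries. *Ncam1*, another adhesion molecule of immature glia that muscle and mesenchyme express too, was at 87.6 to 146 FPKM in WT and 89.9 to 138 FPKM in KO libraries. *Gap43*, *Itga4*, and *Moxd1* overlapped between the groups as well. *Sox2*, which keeps Schwann cells immature, was listed at 0 in all 3 WT libraries and KO0 and was at 0.632 and 3.47 FPKM in KO1 and KO2. *Pax3*, an early neural crest factor, was at 1.80, 1.04, and 0 FPKM in WT and 0, 0.0205, and 0.451 FPKM in KO libraries.

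Of the 18 precursor genes, 16 passed the filter, 14 had a positive log2 fold change, and 0 had an adjusted p under 0.05 in limma, where 0.00772% of all 12955 tested genes, the single gene *Rn45s*, did. The median log2 fold change of the 16 was 1.81, and that of all genes tested was 0.07. Among the 11 that were not members, the median was 0.97, the smallest adjusted p was 0.502 (*L1cam*), and 4 had an unadjusted p under 0.05, all higher in KO, where 3.31% of all tested genes were. Genes with a low mean pass the filter more readily when a group is high, so these counts, and those of the lists below, describe the lists only.

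Several myelin genes outside the 8 separated the groups. All 3 KO libraries lay above all 3 WT libraries for 5 of the 9 tested myelin genes, beside 8.21% of all tested genes. *Cnp*, a myelin enzyme, was at 4.37, 4.19, and 3.92 FPKM in WT0, WT1, and WT2 and at 5.64, 12.5, and 22.0 FPKM in KO0, KO1, and KO2 (log2 fold change 1.46, standard error 0.51, limma unadjusted p = 0.0215, adjusted p = 0.552). *Mal*, a myelin lipid raft protein, was at 1.21, 0, and 1.03 FPKM against 1.28, 5.25, and 20.5 FPKM. *Prx*, which encodes periaxin, was at 3.64, 3.67, and 3.93 FPKM against 4.96, 6.59, and 7.48 FPKM. Each of these 3 genes was lower in every WT library than in any KO library and higher in KO1 and KO2 than in KO0. None passed the adjusted threshold.

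Some of the other myelin genes were at or near 0 in the WT libraries and KO0. Others were not, with *Pllp* at 2.79 FPKM in WT0 and 3.85 FPKM in KO1 and *Drp2* at 1.24 FPKM in KO1. *Prx*, given above, was at 3.64 FPKM or more in every library, so no stage of myelination is read from these values. *Mag* was listed at 0 in the WT libraries and KO0 and was at 0.408 and 1.52 FPKM in KO1 and KO2, and *Pmp2* was listed at 0 in the same 4 libraries and at 1.86 and 0.510 FPKM. *Gjb1*, *Gldn*, and *Fa2h* were listed at 0 in all 6 libraries. *Cldn19*, a tight junction gene of myelinating Schwann cells, reached 0.754 and 0.955 FPKM in KO1 and KO2. Of the 17 myelin genes, 9 passed the filter, 8 of them had a positive log2 fold change, and 0 had an adjusted p under 0.05 in limma. The median log2 fold change of the 9 was 2.05. Among the 7 that were not members, 4 had an unadjusted p under 0.05, all higher in KO, beside 3.31% of all tested genes.

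**Figure D2:**
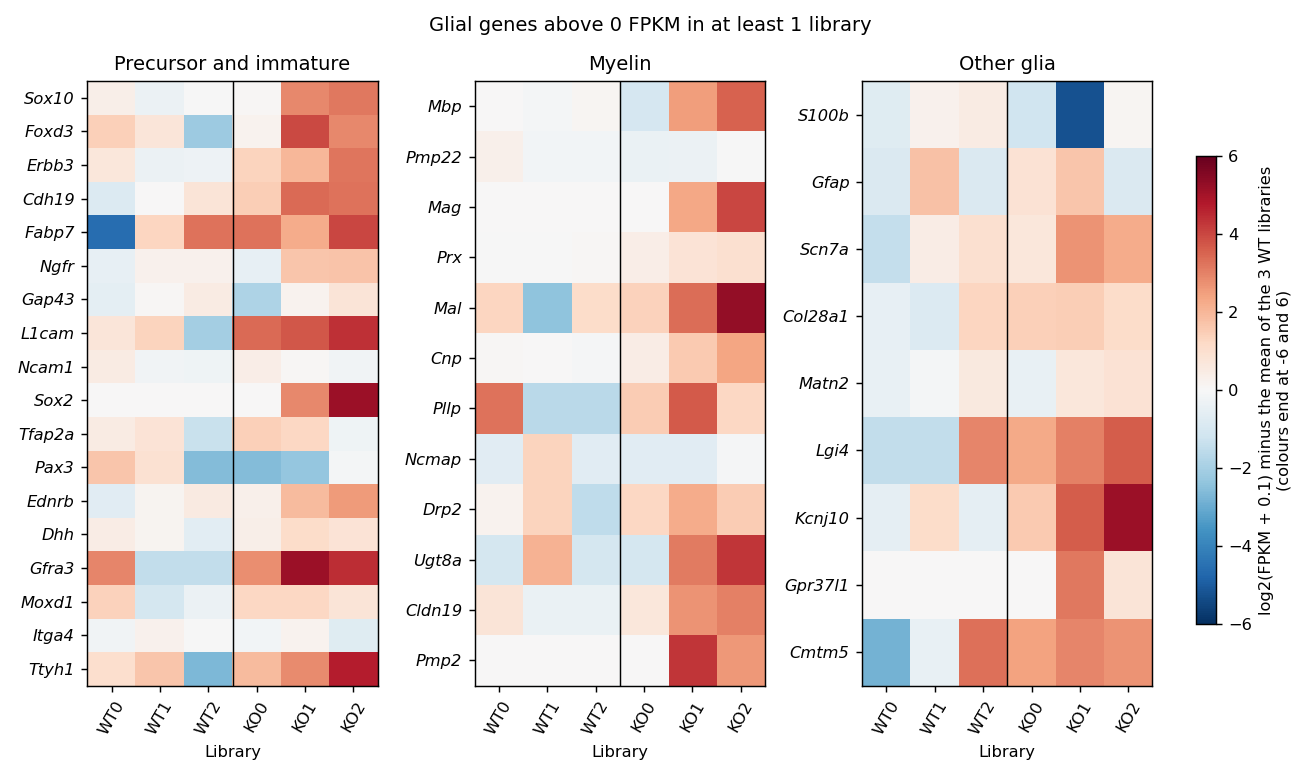
log2(FPKM + 0.1) minus the mean of the 3 WT libraries (color, capped at both ends) for glial genes (rows) above 0 FPKM in at least 1 library (columns), in panels of precursor and immature, myelin, and other glial genes. *Sox10*, at 14.3 and 17.6 FPKM in KO1 and KO2, is dark only in those 2 libraries, and *Pmp22* is close to 0 in every library.

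Of 6 regulators of myelination, *Egr2*, *Pou3f1*, and *Pou3f2* were low, and *Nab1*, *Nab2*, and *Gpr126* were not. *Egr2*, the factor that switches on myelin genes, was at 0, 0.700, and 0 FPKM in WT and 0.543, 0, and 1.06 FPKM in KO libraries, so it was listed at 0 in KO1 beside *Cnp* at 12.5 FPKM. *Pou3f1* was at 0 FPKM in each WT library and at 0.454, 1.32, and 0 FPKM in the KO libraries. *Pou3f2* was at 0.0851, 0.0514, and 0.0139 FPKM against 0.287, 0.788, and 1.84 FPKM. *Gpr126* (*Adgrg6*), the adhesion receptor that starts myelination in Schwann cells, was at 2.51, 4.86, and 2.26 FPKM in WT and 5.20, 8.19, and 18.4 FPKM in KO libraries (log2 fold change 1.58, limma adjusted p = 0.564). *Nab1* and *Nab2*, cofactors of EGR2 that many tissues express, were between 15.1 and 46.1 FPKM and overlapped between the groups. The factors that hold myelination back went in both directions. *Id2* was at 155, 107, and 88.6 FPKM in WT and 79.1, 51.4, and 65.8 FPKM in KO libraries (log2 fold change -0.82, limma adjusted p = 0.54). *Notch1* was at 17.7, 14.2, and 21.2 FPKM in WT and 21.5, 28.0, and 23.5 FPKM in KO libraries (log2 fold change 0.47, limma adjusted p = 0.625). *Jun* overlapped between the groups, and *Sox2*, given above, was above 0 only in KO1 and KO2. The DA expresses *Id2*, *Jun*, and *Notch1* outside glia, so their values need not come from Schwann cells.

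Among glial genes not tied to a stage, *Scn7a*, a sodium channel of nonmyelinating Schwann cells, was at 0.653, 2.71, and 3.95 FPKM in WT and 3.19, 13.2, and 9.46 FPKM in KO libraries. *Kcnj10*, a potassium channel of satellite glia, was at 0, 0.209, and 0 FPKM against 0.334, 1.74, and 5.06 FPKM. *Gfap* reached at most 0.522 FPKM in any library, and the library with that value was WT1. The lists of precursor, myelin, other glial, regulator, and neuregulin genes and of factors that hold myelination back were then pooled. They held 47 genes that were not among the 8, and 32 of these were tested. Limma called 0 of the 32 at an adjusted p under 0.05. At an unadjusted p under 0.05, 9 were higher and 1 was lower in KO, where 3.31% and 4.97% of all tested genes were (8.28% in either direction), and without moderation the numbers were 5 and 0. All 3 KO libraries were above all 3 WT libraries for 10 of the 32 and below them for 1, *Id2*, where 8.21% of all tested genes were above and 7.84% below. Both KO1 and KO2 were above all WT libraries for 18 of the 32, beside 14.7% of all tested genes.

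Each KO library was also set against the WT libraries on its own. Of the 16 tested precursor genes, KO0 was above every WT library for 5, KO1 for 11, and KO2 for 12. Of the 9 tested myelin genes, KO0 was above them for 5, KO1 for 8, and KO2 for 7. Over all tested genes the shares were 26.5% for KO0, 26.9% for KO1, and 26.7% for KO2. KO0's share of the precursor genes (31.2%) was near that of all genes, and its share of the myelin genes (55.6%) was above it. *Erbb3*, *Cdh19*, *Cnp*, and *L1cam* were higher in KO0 than in any WT library, whereas *Sox10*, *Foxd3*, *Ngfr*, and *Mbp* were not. By FPKM, *Mbp* was 0.546 times *Sox10* in KO0, 0.932 times in KO1, and 1.54 times in KO2, against 0.929, 1.46, and 1.33 times in the WT libraries. *Cdh19* was 1.32, 0.685, and 0.513 times *Sox10* in KO0, KO1, and KO2, against 0.181, 0.614, and 0.851 times in the WT libraries. Both ratios overlapped between the groups, and neither has a test.

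KO1 and KO2 were compared with each other gene by gene. Myelin genes that were above 0 in both and at 1 FPKM or more in either were higher in KO2 for 9 of 12 genes, with a median ratio of KO2 to KO1 of 1.49. *Mbp* was 2.03, *Mal* 3.91, and *Cnp* 1.77 times as high in KO2, whereas *Prx* (1.14) was nearly level and *Pllp*, *Drp2*, and *Pmp2* were lower. Precursor genes were higher in KO2 for 9 of 17, with a median ratio of 1.03, beside 0.998 for 13158 genes of the whole table. *Sox10* was 1.23 times as high in KO2, *Erbb3* 2.34 times, and *Cdh19* 0.918 times, and *Foxd3*, *Gfra3*, and *Dhh* were at 0.470, 0.597, and 0.832 times their level in KO1. The list medians relative to WT ran the other way, at 1.95 in KO1 and 2.70 in KO2 for the tested precursor genes and at 2.52 and 2.47 for the tested myelin genes, so no shift in the balance of the lists is read from these 2 libraries, which have no replicate check.

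By a rule on likeness, the 5 genes with profiles nearest to *Sox10* outside the 8, by the root mean square difference of centered log2(FPKM + 0.1) values over the 6 libraries, were *Slc35f1*, *Cyp2j9*, *Tspan15*, *Trim30a*, and *Kbtbd11*, at 0.43 to 0.58 log2 units. *Slc35f1* was at 1.27, 1.39, and 1.87 FPKM in WT and 2.39, 9.31, and 10.8 FPKM in KO libraries. Among the 8 genes, *Mbp* lay at 0.49 log2 units from *Sox10*, *Erbb3* at 0.65, *Cdh19* at 0.80, *Foxd3* at 1.15, *Pmp22* at 1.49, *Fabp7* at 2.80, and *S100b* at 2.98. The 5 nearest to *Mbp* were *Gm20319*, *Cyp2j9*, *Adam23*, *Cyfip2*, and *Kbtbd11*, at 0.61 to 0.72 log2 units. *Adam23* was at 1.75, 4.90, and 6.31 FPKM in WT and 2.02, 17.0, and 19.7 FPKM in KO libraries. *Cyp2j9* and *Kbtbd11* were near both.

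Markers of other cell types that could be in the dissected tissue were set beside the glial genes. Both KO1 and KO2 were above every WT library for 7 of the 10 tested neuron genes, beside 14.7% of all tested genes, and KO0 was for 5. *Stmn2*, a neuronal tubulin regulator, was at 12.3, 3.69, and 19.1 FPKM in WT and 32.5, 27.7, and 29.7 FPKM in KO libraries, and *Elavl4*, a neuronal RNA-binding protein, was at 0.495, 0.645, and 0.609 FPKM against 3.47, 1.70, and 1.89 FPKM. *Tubb3* was at 0.759, 1.76, and 0 FPKM against 1.46, 7.09, and 11.1 FPKM. Of the 18 neuron genes, all 10 that were tested had a positive log2 fold change (median 1.71). Limma called 0 of them at an adjusted p under 0.05, beside 0.00772% of all tested genes. At an unadjusted p under 0.05, 3 were higher in KO, beside 3.31% of all tested genes. *Syt1*, *Uchl1*, and *Isl1* overlapped between the groups, with *Syt1* at 11.2, 7.90, and 0 FPKM in WT and 20.7, 2.08, and 4.13 FPKM in KO libraries. The summed FPKM of the list was between 44.8 and 63.1 in WT and between 101 and 109 in KO libraries, and *Chat* was at 0 in each library. In KO0, *Elavl4* and *Stmn2* were as high as in KO1 and KO2, whereas *Tubb3*, like *Sox10* and *Mbp*, was not. The neuron genes thus differed among themselves in KO0, and no contrast between neuron and glial genes is read from that library. The part of nerve content in the glial differences was not tested.

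Among genes of central nervous system glia, *Mobp*, *Opalin*, and *Olig1* were at 0 in each library and *Olig2* was at most 0.145 FPKM, whereas *Mog* reached 6.90 FPKM in WT2 and 3.67 FPKM in KO1 and *Aqp4* 3.75 FPKM in WT1 and 4.09 FPKM in KO2. The summed FPKM of that list of 8 genes was between 0.635 and 7.92 in WT and between 0 and 5.61 in KO libraries. The summed FPKM of the 16 heart muscle genes was 1833 in WT1 and 2129 in KO2 and between 74.2 and 674 in the other libraries. WT1 was high in heart muscle transcripts with *Sox10* at 1.41 FPKM, and KO1 was low in them with *Sox10* at 14.3 FPKM. The summed FPKM of 13 measured erythroid genes was 15478 and 27530 in KO0 and KO1 and between 4357 and 8756 in the other 4 libraries, so that KO2, high in glial genes, was inside the WT range. Leukocyte genes summed to 240 and 177 FPKM in KO1 and KO2, against 25.8, 91.8, and 206 FPKM in WT and 37.5 FPKM in KO0. Endothelial genes summed to 622 and 585 FPKM in KO1 and KO2 and to between 335 and 458 FPKM in the other 4 libraries, and fibroblast genes overlapped between the groups. Smooth muscle genes, which define the wall of the DA, were present in all 6 libraries and summed to 5707, 2858, and 2473 FPKM in WT and 2386, 1789, and 913 FPKM in KO libraries. The library lowest in smooth muscle genes, KO2, was the highest of the 6 for *Sox10*, *Erbb3*, and *Mbp*. The part of these cell types in the glial values was not tested.

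**Figure D3:**
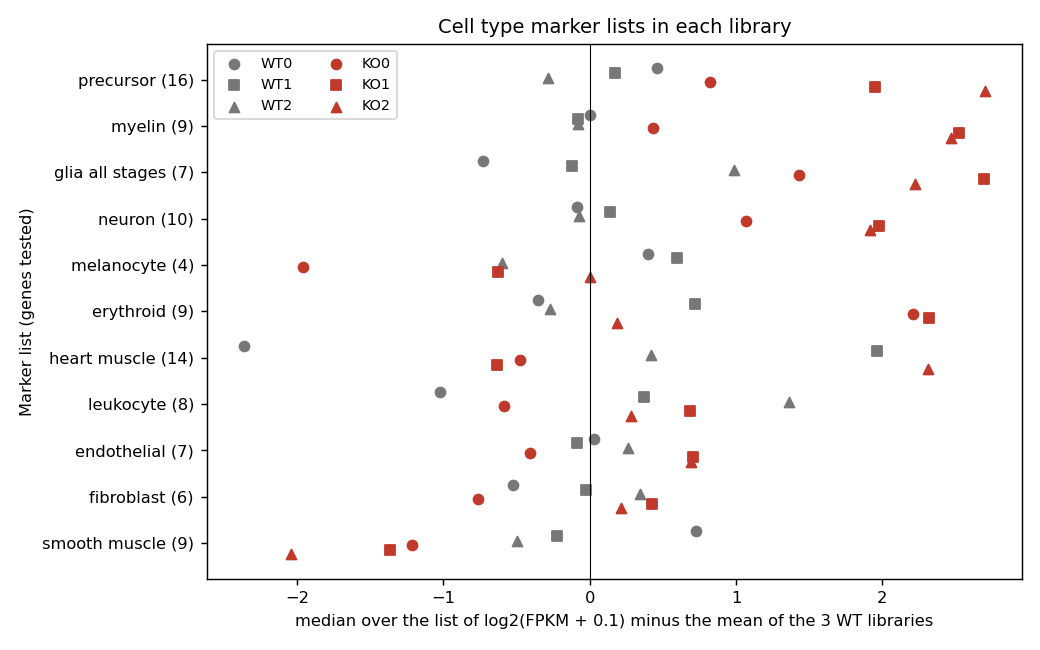
Median over the tested genes of each marker list of log2(FPKM + 0.1) minus the mean of the 3 WT libraries (x axis) for 11 lists (y axis, tested genes in brackets), with WT libraries in gray, KO libraries in red, and the replicate number shown by shape. KO1 and KO2 lie to the right for precursor, myelin, and other glial genes, with medians of 1.95 and 2.70 for precursor and 2.52 and 2.47 for myelin genes, and KO0 is at 0.82 and 0.43.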

How the data were processed

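RNA was taken from frozen DA at E17.5 in 3 WT and 3 *Prdm6f/f; SM22-Cre* embryo libraries, and groups and replicate numbers came from the sample titles. The authors aligned trimmed reads with TopHat2 to the mm10 build and deposited FPKM values from Cufflinks and Cuffdiff. Versions, annotation, and scaling are not given in the sources used here. FPKM holds no counts, so absolute depth is unknown and no counting interval is given.

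From the deposited FPKM, log2(FPKM + 0.1) of the 12955 genes averaging 1 FPKM or more was tested with limma 3.58.1 in R 4.3.3 (eBayes with trend, two-sided, Benjamini-Hochberg, threshold 0.05). The limma step was tested on simulated data. Alternatives changed the pseudocount, low-value filter, normalization, moderation of variances, and replicate block, or left out each library. The named genes are the 8 members, genes of the marker lists, and the 5 genes nearest in profile to *Sox10* and to *Mbp*. Some list genes are counted but not reported singly here. The members and lists were chosen with earlier results of these data known. Older symbols (*Gpr126*) were matched through RefSeq synonyms. Positions are from GENCODE vM21 (GRCm38) and promoters from RefSeq.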

Additional observations from a re-analysis of the deposited data

How the results depend on the processing

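The log2 fold change of each of the 8 genes kept its sign in all alternatives that could be fitted (*Cdh19*, *Foxd3*, and *S100b* drop out at a mean FPKM of at least 5). *Sox10* ranged from 1.30 to 3.04, *Mbp* from 0.70 to 3.03, *Cdh19* from 1.94 to 3.32, *Erbb3* from 1.48 to 2.61, *Foxd3* from 1.24 to 3.43, *Fabp7* from 0.89 to 4.80, *S100b* from -3.21 to -0.54, and *Pmp22* from -0.46 to -0.11. No precursor or myelin gene was called in any alternative. The precursor median of 1.81 became 1.08 at a mean FPKM of at least 5 and was 1.40 to 2.41 when single libraries were dropped, highest without KO0. The myelin median of 2.05 became 1.08 without WT1 and KO2, chosen after the data were seen, and was 1.40 to 2.46 when single libraries were dropped. The causes were not tested.

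The count of 1 called gene, *Rn45s*, became 2 without trend, 2 without moderation (*Brinp3* added in both), and 3 without WT1 and KO2, and was 1 to 3 when single libraries were dropped (3 without WT1, KO0, or KO2). The all-gene median moved from 0.07 to 0.01 with quantile normalization. With the replicate block the count stayed at 1. The numbers pair nothing evident, since deviations correlated at 0.12, -0.08, and -0.01 for numbers 0, 1, and 2.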

Other observations

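Melanocytes share the neural crest lineage and *Sox10* with Schwann cells. None of the 8 measured melanocyte genes was higher in any KO library than in every WT library. Over all tested genes, between 26.5% and 26.9% were so in each KO library. Only 4 of the 8 passed the filter, and 2 were at 0 in each library and could not be higher. The difference from the glial genes was not tested. *Dct*, which encodes a melanin enzyme (chromosome 14 of GRCm38 from 118012790 to 118052244, minus strand), was at 13.2, 6.46, and 9.10 FPKM in WT0, WT1, and WT2 and at 0, 0, and 1.16 FPKM in KO0, KO1, and KO2. Every KO library was below every WT library, as for 7.84% of all tested genes. The log2 fold change was -5.32 (standard error 1.18, limma unadjusted p = 0.00218, adjusted p = 0.414). *Tyr*, the enzyme that starts melanin synthesis, was at 3.09, 1.70, and 0 FPKM against 0.992, 1.07, and 0.486 FPKM, and *Pmel* at 2.07, 0.478, and 0 FPKM against 0, 0, and 0.661 FPKM. *Kit* and *Mitf*, which other cells of the vessel also express, overlapped between the groups, and *Mlana* and *Slc45a2* were at 0 in each library. Of 4 tested melanocyte genes, 3 had a negative log2 fold change (median -0.67) and 0 had an adjusted p under 0.05 in limma. At an unadjusted p under 0.05, 1 was lower in KO, beside 4.97% of all tested genes. *Dct* was singled out after its values were seen.

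The remaining lists were skeletal muscle, cartilage, fat, and epithelial genes. Their summed FPKM was 28.4 to 50.6 in WT and 13.6 to 72.0 in KO libraries for skeletal muscle, 31.9 to 53.2 and 38.2 to 55.8 for cartilage, 48.5 to 117 and 10.1 to 47.3 for fat, and 18.7 to 52.8 and 21.5 to 40.2 for epithelial genes. *Fabp4* made up most of the fat list, while *Plin1* and *Ucp1* were at 0 in each library.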
